A study of Mus musculus with 24 samples.

Results

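The 10 genes described here encode growth factors, a chemokine and 1 receptor subunit with which supporting cells of the gonad act on germ cells, vessels and interstitial cells: Kitl, Gdnf, Gfra1, Cxcl12, Nrg1, Pdgfa, Pdgfb, Vegfa, Csf1 and Lif. They were listed by symbol, not by a cut on their values, but with earlier results of these data known. All 10 were found among the 32040 genes of the deposited tables. All 10 passed the filter on low counts, which 16190 genes passed. RNA was measured in mouse fetal gonad cells sorted by fluorescence at E11.5 (E for embryonic day) and at 3 later stages, E12.5, E13.5 and E15.5. The XX groups were pre-granulosa cells, the somatic support cells of the ovary, from a line carrying Tg(Enh8-mCherry). The XY groups were Sertoli cells, the support cells of the testis cords, from the SOX9-IRES-GFP line, so they were sorted on a GFP reporter tied to Sox9. Each of the 8 groups had 3 libraries, 24 in all. Sex, mouse line and fluorophore changed together and cannot be told apart in any XX minus XY difference. Nothing states that the 3 libraries of a group came from separate litters, so p-values measure only the spread between these libraries. The labels of XX E13.5 replicate 1 disagree on its stage (E13.5 in the title, E12.5 in another field). Without it 3 calls on single genes were lost: the change of Gdnf over stages in XX (adjusted p = 0.0688), the change of the Vegfa sex difference over stages (adjusted p = 0.0621) and its last step (adjusted p = 0.0695).

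Fetal germ cells depend on the somatic cells around them. KIT ligand supports the survival and movement of germ cells that carry the receptor KIT, GDNF signals through GFRA1 and RET and is known as a Sertoli cell factor for spermatogonia, and CXCL12 is a chemokine that guides migrating germ cells. PDGF and VEGF ligands act on interstitial and endothelial cells, CSF1 on macrophages, and neuregulin 1 on ERBB receptors.

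Library totals ran from 11275251 to 37256881 counts, the highest of them in XY E11.5. Marker sums followed the labels: 5 Sertoli markers summed to between 573 and 6118 TPM (transcripts-per-million, a level scaled for transcript length) in XY libraries and to between 20.3 and 112 in XX libraries, while 5 pre-granulosa markers summed to between 229 and 1101 TPM in XX and to between 1.35 and 64.8 in XY. Sox9, on whose reporter XY cells were sorted, had a mean of 684 TPM within the XY E11.5 mean sum of 783, so that sum was not independent of the sort. Of the other Sertoli markers at E11.5, Amh (means 3.54 in XX and 26.9 in XY), Dhh (2.36 and 54.5) and Sox10 (0.61 and 7.50) were higher in XY. Cldn11 was not (13.0 and 9.92). Foxl2 was at 1.35, 15.8 and 2.32 TPM in XX E11.5 replicates 1 to 3, and at most 0.14 in XY E11.5. The E11.5 libraries stood apart in markers of other cells. Interstitial and perivascular markers (6 genes, among them the receptor gene Pdgfra) summed to 309, 146 and 786 TPM in XX E11.5 replicates 1 to 3 and to 228, 310 and 419 in XY E11.5. In later libraries they reached at most 136 in XX and 34.7 in XY. Macrophage markers (6 genes) summed to between 154 and 431 TPM in XX E11.5, to between 31.5 and 67.1 in later XX libraries and to at most 2.11 in XY, where C1qa, C1qc and Cd53 were at 0 in all libraries of E12.5 and E13.5. Erythroid markers (5 genes) summed to between 7400 and 62347 TPM in XX E11.5 and to at most 3399 elsewhere. Endothelial markers (6 genes) summed to between 6.41 and 16.6 TPM in all libraries, and none of these marker lists was at 0 for all its genes in any group. The endothelial members moved in opposite directions under this sum. From XY E11.5 to XY E12.5 the means of Pecam1 (0.91 to 4.03 TPM) and Cdh5 (0.28 to 2.87) rose. Those of Emcn (2.16 to 0.07), Tek (0.55 to 0.04), Cldn5 (0.31 to 0.03) and Kdr (3.89 to 0.13) fell.

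Of the 10 genes, 5 differed between XX and XY at E11.5 (3 higher in XX and 2 lower), where 42.0% of all genes tested did so (21.4% higher and 20.6% lower). At E12.5, 7 differed (2 higher and 5 lower in XX, against 62.1% of all genes, 30.5% and 31.5%). At E13.5, 9 differed (3 higher and 6 lower, against 66.1%, 32.8% and 33.3%), and at E15.5 all 10 differed (3 higher and 7 lower, against 69.4%, 34.9% and 34.4%). The median log2 difference of the 10 genes was -0.27, -1.63, -1.93 and -2.21 in turn, beside medians between -0.01 and 0.05 over all genes tested. Differences are log2 XX minus XY from edgeR's quasi-likelihood test on counts, with Benjamini-Hochberg adjusted p over all genes tested and a gene called at an adjusted p under 0.05. The SE after each ± is not an output of that test. It was derived as the absolute log2 difference divided by the square root of the F statistic. It is approximate, above all at low counts. Kitl, Nrg1 and Vegfa were the genes higher in XX at E15.5. The E11.5 count rests on a spread shared by all groups: a fit of the 6 E11.5 libraries alone called 2 (Gdnf and Vegfa), one of these 6 with the replicate number as a block called 2 (Kitl and Gdnf), and a fit of all 24 libraries with the block called 5.

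**Figure D1:**
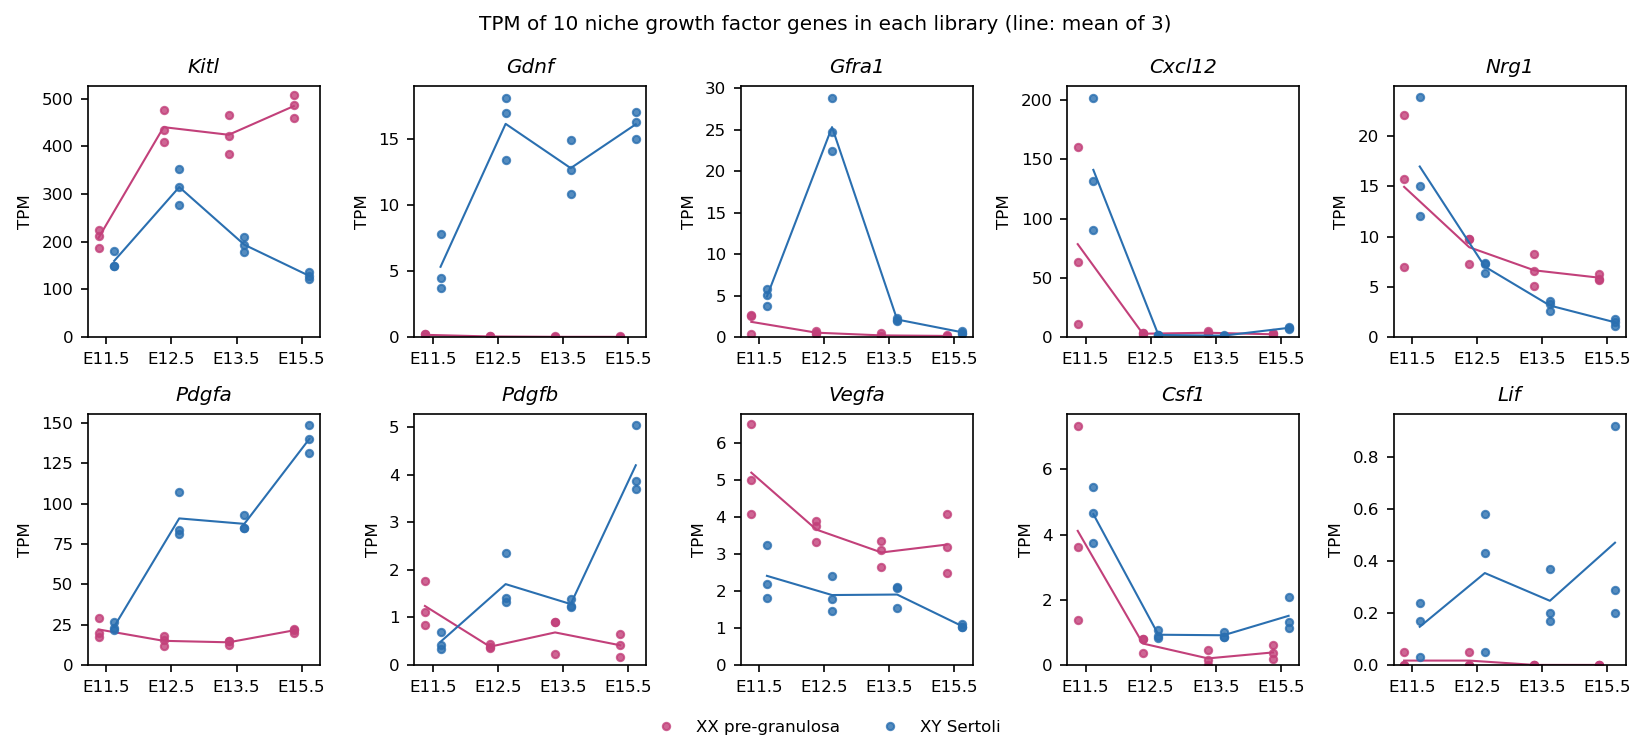
TPM (y axis, linear from 0, own scale per gene) of the 10 genes in each library (points) by stage (x axis), with a line through the mean of 3 libraries, XX in pink and XY in blue. Kitl was highest above XY at E15.5, Pdgfa separated the sexes from E12.5 on, Gdnf stayed near 0 in XX, Gfra1 had a single high stage in XY, and Cxcl12, Nrg1 and Csf1 were highest at E11.5.

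**Figure D2:**
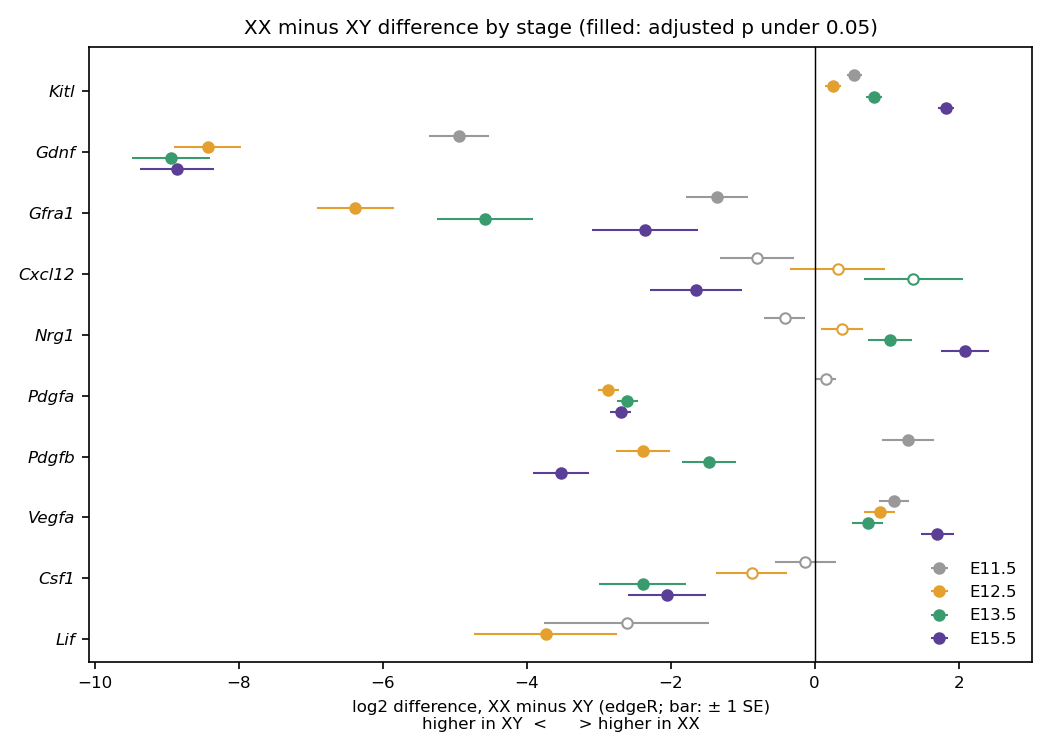
XX minus XY log2 difference (x axis, edgeR, bar ± 1 SE derived from the F statistic) of each gene (y axis) at the 4 stages (colours), filled where the adjusted p was under 0.05. Kitl and Vegfa lay to the right of 0 at every stage and Gdnf and Gfra1 to the left. The fitted Gdnf values rest on at most 10 XX counts a library. Lif at E13.5 and E15.5 is not drawn, since all XX libraries had 0 counts there.

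Kitl, the ligand of KIT, had the highest mean TPM of the 10 in every group except XY E15.5, where Pdgfa was higher. In XX it was measured at 226, 212 and 186 TPM (E11.5), 477, 434 and 410 (E12.5), 385, 466 and 422 (E13.5) and 507, 486 and 460 (E15.5). In XY the values were 181, 148 and 150.1 TPM (E11.5), 352, 315 and 277 (E12.5), 209.9, 178 and 194 (E13.5) and 128, 136 and 121 (E15.5). Every XX library lay above every XY library of its stage. XX minus XY was 0.55 ± 0.11 at E11.5 (adjusted p = 0.000379), 0.26 ± 0.11 at E12.5 (adjusted p = 0.0469), 0.82 ± 0.11 at E13.5 (adjusted p = 1.22e-06) and 1.82 ± 0.11 at E15.5 (adjusted p = 8.12e-12), the last a 3.54-fold difference. The Kitl difference at E12.5 was the least secure: it lost its call in 12 of 33 alternatives, among them leaving out XX E12.5 replicate 1 (0.15, adjusted p = 0.275), XX E12.5 replicate 2 (0.28, adjusted p = 0.0615), XY E12.5 replicate 2 (0.25, adjusted p = 0.102) or XY E12.5 replicate 3 (0.22, adjusted p = 0.143), while 6 XY libraries of other stages that also ended it left the size at 0.26.

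Kitl rose between E11.5 and E12.5 in both sexes, 1.76-fold in XX (log2 0.81 ± 0.11, adjusted p = 2.38e-05) and 2.16-fold in XY (log2 1.11 ± 0.11, adjusted p = 3.83e-08). In XX neither later step was called. In XY it then fell to E13.5 (log2 -0.66 ± 0.11, adjusted p = 0.000272) and again to E15.5 (log2 -0.74 ± 0.11, adjusted p = 5.23e-05). The steps themselves differed between the sexes, by 0.57 ± 0.15 from E12.5 to E13.5 (adjusted p = 0.00988) and by 1 ± 0.15 from E13.5 to E15.5 (adjusted p = 9.41e-05), and the step from E11.5 to E12.5 was not called as different. In the order of group means, the XX groups of E12.5, E13.5 and E15.5 overlapped each other and stood above XY E12.5. Below it came XX E11.5, XY E13.5 and XY E11.5, neighbours overlapping, and XY E15.5 was lowest without overlap. Kitl made up between 92.7% and 94.4% of the summed TPM of the 10 genes in XX libraries from E12.5 on, and between 40.1% and 43.8% in XY at E15.5. Estimated counts per gene do not separate its soluble and membrane-bound forms.

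Kit, the receptor gene for which Kitl is named, fell in XY in the first step, E11.5 to E12.5 (log2 -2.43 ± 0.36), the step in which Kitl rose, and both fell in XY from E12.5 to E13.5 (Kit log2 -1.53 ± 0.39). Kit was at 14.9, 19.0 and 29.3 TPM in XY E11.5, at 2.47, 3.02 and 2.83 in XY E12.5 and at 0.94, 0.93 and 0.67 in XY E15.5. In XX E12.5 it was at 13.0, 10.6 and 7.86 TPM and in XX E15.5 at 11.8, 11.9 and 9.66. Groups overlapped at E11.5 and did not later, and XX minus XY was 1.71 ± 0.36 (E12.5), 3.27 ± 0.39 (E13.5) and 3.75 ± 0.41 (E15.5), all called. Kit is also a germ cell marker, and the 5 other germ cell markers listed summed to between 5.41 and 7.32 TPM in XX E12.5 and 103.1 and 164 in XX E15.5, and to between 3.89 and 5.74 in XY E12.5 and 40.5 and 74.2 in XY E15.5. These markers differed in direction at E15.5. The means of Sycp3 (104 TPM in XX and 3.87 in XY) and Dazl (24.6 and 9.67) were higher in XX. Ddx4 was close (7.05 and 6.77), and Pou5f1 (0.32 and 6.69) and Dppa3 (1.61 and 30.5) were higher in XY. Their part in the Kit difference was not tested. In these bulk libraries, fewer cells of a type and less RNA per cell cannot be told apart.

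Gdnf, a neurotrophic factor of the TGF-beta superfamily, was close to absent from XX libraries. In XY it was at 7.79, 4.48 and 3.71 TPM (E11.5), 13.4, 18.1 and 17.0 (E12.5), 15, 10.8 and 12.6 (E13.5) and 17.1, 16.3 and 15 (E15.5). No XX library held more than 10 Gdnf counts, and XX sums over 3 libraries were 21, 8, 3 and 4 counts at the 4 stages, against 1339, 2740, 2230 and 2277 in XY; all 4 of the XX E15.5 counts lay in replicate 3. Scaled for depth, XY exceeded XX 31.3-fold at E11.5 (95% interval 20.4 to 50.8), 363-fold at E12.5 (184 to 842), 531-fold at E13.5 (181 to 2580) and 492-fold at E15.5 (192 to 1810). These intervals cover counting error only. The XX minus XY difference was called at each stage (adjusted p = 7.03e-09 at E11.5 and at most 7e-12 later). In XY, Gdnf rose 3.47-fold from E11.5 to E12.5 (log2 1.79 ± 0.28, adjusted p = 1.61e-05), and neither later step was called. The 2 RefSeq start sites of Gdnf have their own upstream windows, and the first, 250 bases at chr15:7809798-7810047 on the plus strand (GRCm38.p6), is shown because the gene split the sexes at every stage. Capitals mark matches to a motif.
Gdnf: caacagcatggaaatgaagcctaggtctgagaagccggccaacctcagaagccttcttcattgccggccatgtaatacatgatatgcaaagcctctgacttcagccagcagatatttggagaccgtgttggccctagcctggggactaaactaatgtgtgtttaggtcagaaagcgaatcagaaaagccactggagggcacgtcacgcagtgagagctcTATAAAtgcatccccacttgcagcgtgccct
Windows were searched on both strands for 5 motifs. The first Gdnf window held the TATA box letters TATAAA in 1 place, as did 12.4% of 32851 windows of that length. It did not hold the GATA motif, spelled GATAA, found in 22.6% of windows, nor the SOX motif, spelled ACAAT, found in 27.7%. The NR5A1 motif, spelled AAGGTCA, found in 4.1%, and the GC box, spelled GGGCGG, found in 32.7%, were not in it either. The second window, at chr15:7813477-7813726, held 1 GATA and 1 SOX match and no TATA box. A match is a run of letters, not evidence of binding.

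Gfra1 encodes the membrane-anchored co-receptor that binds GDNF. In XY it was at 5.80, 5.11 and 3.78 TPM (E11.5), 22.4, 28.8 and 24.7 (E12.5), 2.30, 1.98 and 2.10 (E13.5) and 0.79, 0.44 and 0.53 (E15.5). XX libraries were at 2.54, 0.38 and 2.61 TPM (E11.5) and at or under 0.75 in every later library. The XY E12.5 libraries thus stood above all others, and XX lay below XY at each stage without overlap. In XY, Gfra1 rose 5.90-fold from E11.5 to E12.5 (log2 2.56 ± 0.42, adjusted p = 3.31e-05) and then fell to E13.5 (log2 -3.56 ± 0.44, adjusted p = 1.42e-05) and to E15.5 (log2 -1.83 ± 0.48, adjusted p = 0.0092). Without XY E15.5 replicate 2 the last fall of Gfra1 was -1.64 and not called (adjusted p = 0.0507). In XX, Gfra1 fell from E11.5 to E12.5 (log2 -2.47 ± 0.53, adjusted p = 0.00138), the step in which it rose in XY, and the steps differed by -5.03 ± 0.67 (adjusted p = 5.81e-06). XX E11.5 replicate 2 lay within the XX E12.5 range. The 3 XX E11.5 libraries were ordered by Gfra1 as by the interstitial, macrophage, erythroid and germ cell (with Kit) sums, whose part was not tested. The XX fall was not called on log2(TPM + 0.1) (-1.29, adjusted p = 0.0928) or with only the 6 libraries compared (-2.5, adjusted p = 0.0802). XX minus XY for Gfra1 was -1.35 ± 0.43 at E11.5 (adjusted p = 0.0158), -6.38 ± 0.53 at E12.5 (adjusted p = 2.64e-09), -4.58 ± 0.67 at E13.5 (adjusted p = 5.2e-06) and -2.36 ± 0.73 at E15.5 (adjusted p = 0.00735). At E15.5, where XX held between 2 and 7 Gfra1 counts per library, the call was lost on log2(TPM + 1) (-0.46, adjusted p = 0.126 among filtered genes and 0.179 among all genes).

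Of 7 further genes of the GDNF family, all tested, 3 were higher and 1 lower in XX at E11.5, 5 and 0 (E12.5), 5 and 0 (E13.5), and 4 and 1 (E15.5). Of all genes, 42.0%, 62.1%, 66.1% and 69.4% were called at these stages in turn. Ret, the signalling receptor that GFRA1 presents GDNF to, was higher in XX at every stage (log2 2.11 ± 0.34, 5.32 ± 0.48, 3.38 ± 0.41 and 3.72 ± 0.45). It was at 1.73, 1.66 and 2.45 TPM in XX E12.5 and at 0.02, 0.07 and 0.04 in XY E12.5, the group in which Gfra1 was highest. Nrtn, encoding the ligand neurturin, was at 109.6, 169.7 and 130.1 TPM in XX E11.5 and at 62.7, 59.2 and 50.9 in XX E15.5, against 19.7, 48.1 and 32.5 and 6.18, 4.99 and 2.48 in XY (log2 2.13 ± 0.34 and 3.69 ± 0.40, called at both stages). Gfra2, the co-receptor that prefers neurturin, was called higher in XX at all 4 stages. These genes were therefore split, with Gdnf and Gfra1 higher in XY and Ret, Nrtn and Gfra2 higher in XX, although Nrtn was not called at E13.5 (0.09 ± 0.34). Others of the family did not keep to 1 side or were seldom called. Gfra3 was called lower in XX at E11.5 (-0.65 ± 0.22) and higher from E12.5 on (1.98 ± 0.24, 3.33 ± 0.26 and 2.51 ± 0.32). Artn was called at E15.5 alone, lower in XX (-4.30 ± 1.06), with XX libraries at 0.08, 0 and 0 TPM.

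Lif, encoding leukemia inhibitory factor, an IL-6 family cytokine, was the least abundant. XY libraries held 15, 3 and 10 counts at E11.5, 3, 16 and 23 (E12.5), 8, 13 and 14 (E13.5) and 12, 13 and 16 (E15.5). In XX there were 2 counts in XX E11.5 replicate 1, 3 in XX E12.5 replicate 1 and 0 in the other libraries. Against a floor of 3 counts per library, Lif was at least 2.55-fold higher in XY at E13.5 and at least 3.81-fold higher at E15.5 (adjusted p = 0.00204 and 0.000663). At E12.5 the ratio of depth-scaled counts was 14.8 (95% counting interval 4.74 to 74.9, adjusted p = 0.00338), with XY E12.5 replicate 1 as low as the highest XX library. At E11.5 the ratio was 6.88 (1.73 to 59.6) and was not called (adjusted p = 0.0762), but it was called without XX E11.5 replicate 1 (adjusted p = 0.0336) or XY E11.5 replicate 2 (adjusted p = 0.0417). No change of Lif with stage was called in either sex. The call at E13.5 was lost on log2(TPM + 1) over all genes (adjusted p = 0.085).

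Lifr, the receptor gene for LIF, was also higher in XY at E11.5, E12.5 and E13.5 (log2 XX minus XY -0.92 ± 0.30, -1.96 ± 0.31 and -1.16 ± 0.31) but not called at E15.5 (0.37 ± 0.30). Il6st, the shared signal-transducing chain gp130, was higher in XX at these stages (0.56 ± 0.11, 1.73 ± 0.12 and 0.74 ± 0.11) and not called at E15.5. Of 6 LIF family partners, 5 were tested (Osm was not), and 1 was higher and 1 lower in XX at E11.5, 3 and 1 (E12.5), 2 and 2 (E13.5), and 2 and 0 (E15.5), beside 42.0%, 62.1%, 66.1% and 69.4% of all genes called in turn. Clcf1 and Ctf1, which encode other cytokines of the family, were the 2 called higher in XX at E15.5 (3.42 ± 0.68 and 1.68 ± 0.36). Ctf1 changed direction between stages: it was called higher in XX at E12.5 (1.46 ± 0.36) and lower at E13.5 (-1.60 ± 0.36).

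Cxcl12 was abundant at E11.5 alone. In XX E11.5 it was at 63.3, 11.3 and 161 TPM and in XY E11.5 at 90.0, 132 and 202. In later XX libraries it lay between 1.33 and 5 TPM, in XY between 0.87 and 2.16 at E12.5 and E13.5, and 7.22, 8.72 and 7.59 (E15.5). Cxcl12 fell from E11.5 to E12.5 in XX (log2 -4.93 ± 0.64, adjusted p = 2.21e-05) and in XY (log2 -6.05 ± 0.67, adjusted p = 3.24e-07), folds of 30.5 and 66.2. Without XX E11.5 replicate 3 the XX fall was -3.81 and stayed called (adjusted p = 2.65e-05). In both sexes the order of the 3 E11.5 libraries by Cxcl12 was their order by the interstitial and perivascular marker sum. The erythroid sum and the sum of 6 germ cell markers had the same order in both sexes (the latter not without Kit). In XX E11.5 the macrophage sum had it too (289, 154 and 431 TPM in replicates 1 to 3). The pre-granulosa sum ran in the opposite order there (288, 620 and 229). The part of none of these in the level of Cxcl12 was tested.

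XX minus XY for Cxcl12 at E11.5 was -0.80 ± 0.52 (adjusted p = 0.226), with overlapping groups. Without XX E11.5 replicate 3, the library with the highest interstitial sum, it was -1.92 (adjusted p = 0.00238), and without replicate 3 of either sex -1.61 (adjusted p = 0.012). It was not called a day later (0.32 ± 0.66) or at E13.5 (1.37 ± 0.68, adjusted p = 0.0837), although XX libraries lay above XY at both stages. The E13.5 difference became called in 6 of 33 alternatives (adjusted p from 0.000559 to 0.204 over all 33). The 6 were the replicate block, the DESeq2 test, log2(TPM + 0.1), only the libraries compared, and leaving out XX E11.5 replicate 2 (1.37, adjusted p = 0.00954) or 3 (1.37, adjusted p = 0.023). Cxcl12 rose in XY from E13.5 to E15.5 by 2.41 ± 0.65 (adjusted p = 0.0112; 2.21 and 0.0528 without XY E13.5 replicate 2), where the XY interstitial sum went from between 4.17 and 5.95 TPM to between 25.4 and 34.7. At E15.5 Cxcl12 was lower in XX, by -1.64 ± 0.64 (adjusted p = 0.0276). The interstitial sum of the XX E15.5 libraries was between 54.5 and 101 TPM. The part of these sums in the level of Cxcl12 was not tested. That E15.5 call was lost without XX E15.5 replicate 1 (-1.32, adjusted p = 0.107), replicate 2 (-1.75, adjusted p = 0.0507) or replicate 3 (-1.77, adjusted p = 0.0594) or XY E15.5 replicate 2 (-1.58, adjusted p = 0.0552). The receptor genes Cxcr4 and Ackr3 were called at no stage except Cxcr4 at E15.5, lower in XX (-1.34 ± 0.38).

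Csf1, encoding the growth factor of macrophages, shared the early high level. It was at 3.62, 1.38 and 7.34 TPM in XX E11.5 and at 3.74, 4.67 and 5.47 in XY E11.5. Later it lay at or under 0.81 TPM in XX and between 0.83 and 2.07 in XY. The E11.5 groups overlapped and at each later stage XX lay below XY. Csf1 fell from E11.5 to E12.5 in XX (log2 -3.04 ± 0.49, adjusted p = 0.000113; -2.33 with adjusted p = 0.00066 without XX E11.5 replicate 3) and in XY (log2 -2.30 ± 0.46, adjusted p = 0.000267). In XX it fell again to E13.5 (log2 -1.65 ± 0.63, adjusted p = 0.0496), a call lost in 26 of 33 alternatives, 20 of them the omission of a single library, with values from -2.32 (without XX E13.5 replicate 1, where it stayed called at adjusted p = 0.0232) to -0.47. XX minus XY for Csf1 was -0.13 ± 0.42 at E11.5 (adjusted p = 0.832), -0.88 ± 0.49 at E12.5 (adjusted p = 0.129, or 0.0411 with only the libraries compared), -2.39 ± 0.61 at E13.5 (adjusted p = 0.00161) and -2.05 ± 0.55 at E15.5 (adjusted p = 0.00221). The E11.5 value was -0.85 without XX E11.5 replicate 3 (adjusted p = 0.101), 0.28 without XX E11.5 replicate 2 and 0.01 without XY E11.5 replicate 3. The E13.5 value was -3.02 without XX E13.5 replicate 1 (adjusted p = 0.00111), and its call was lost on log2(TPM + 1) over all genes (-0.69, adjusted p = 0.0696). Across E11.5 libraries of each sex, Csf1 too followed the order that the interstitial, erythroid and 6-gene germ cell sums shared. Their part was not tested.

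The other members of this axis were higher in XX. Csf1r, the CSF1 receptor gene, was at 16.6, 5.99 and 32.7 TPM in XX E11.5 and at 0.01, 0 and 0.37 in XY E11.5, with 3.95 ± 0.84 as the log2 difference at E15.5. It is a macrophage marker, and the 5 other macrophage markers listed summed to between 29.9 and 399 TPM in XX libraries and to at most 1.74 in XY; their part was not tested. Il34, encoding the second CSF1R ligand, was higher in XX at all 4 stages, by 1.06 ± 0.25, 3.21 ± 0.28, 3.44 ± 0.29 and 4.52 ± 0.34. The 2 CSF1R ligands were therefore higher in opposite sexes at E13.5 and E15.5.

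Cxcl12 and Csf1 both fell in both sexes after E11.5, so their upstream windows are set side by side (RefSeq, GRCm38.p6, 250 bases each, at chr6:117168285-117168534 on the plus strand and chr3:107760470-107760719 on the minus strand, capitals as before).
Cxcl12: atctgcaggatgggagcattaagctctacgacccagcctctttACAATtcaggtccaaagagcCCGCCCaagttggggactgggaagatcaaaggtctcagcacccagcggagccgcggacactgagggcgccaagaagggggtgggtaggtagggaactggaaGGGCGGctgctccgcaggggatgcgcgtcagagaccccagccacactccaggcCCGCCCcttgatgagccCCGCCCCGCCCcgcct
Csf1: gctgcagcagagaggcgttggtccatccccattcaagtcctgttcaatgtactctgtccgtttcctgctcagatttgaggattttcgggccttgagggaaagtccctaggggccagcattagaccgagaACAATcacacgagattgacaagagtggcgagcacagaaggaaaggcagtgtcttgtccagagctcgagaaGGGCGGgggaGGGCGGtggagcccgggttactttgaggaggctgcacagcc
Each held the SOX motif in 1 place. The GC box occurred 5 times in the Cxcl12 window, 2 of these sharing a letter, and 2 times in the Csf1 window. Neither window held the GATA, NR5A1 or TATA box letters. RefSeq windows of Nrg1 and Pdgfb were not used here.

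**Figure D3:**
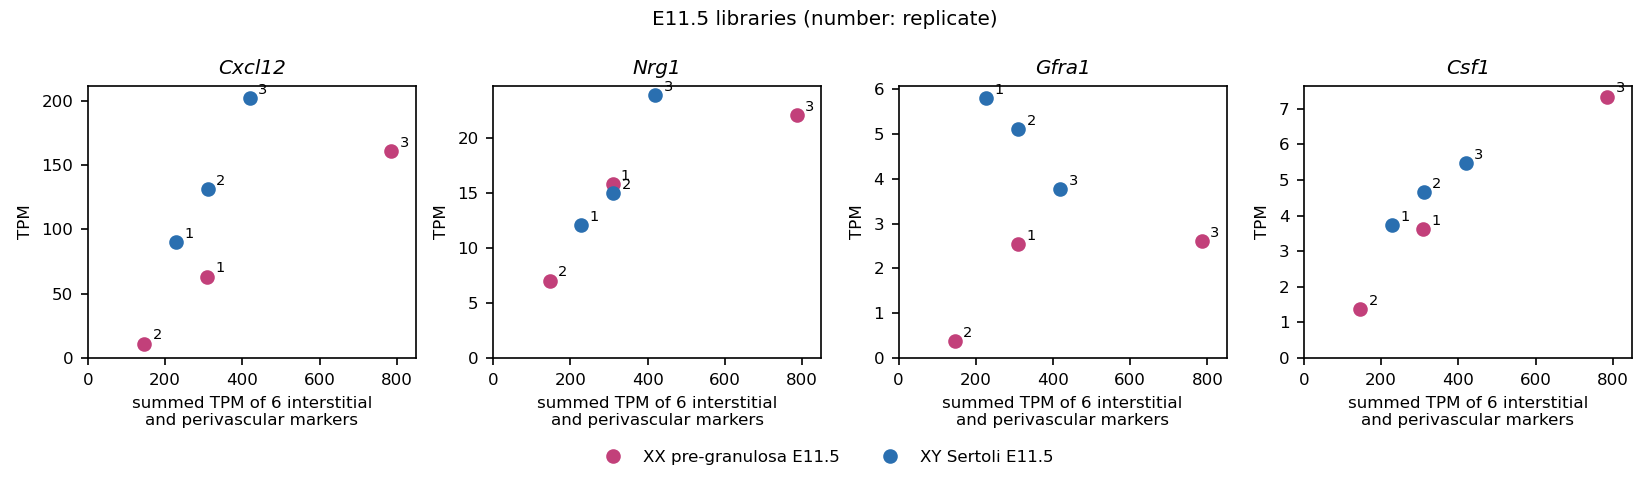
TPM of Cxcl12, Nrg1, Gfra1 and Csf1 (y axes, linear from 0) against the summed TPM of 6 interstitial and perivascular markers (x axis) in the 6 E11.5 libraries, XX in pink and XY in blue, numbered by replicate. Cxcl12, Nrg1 and Csf1 were ordered as the marker sum within each sex, as was Gfra1 in XX, while Gfra1 in XY ran in the opposite order. The erythroid and 6-gene germ cell sums, not drawn, had the same order as the sum shown.

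Nrg1, encoding neuregulin 1, fell in both sexes and further in XY. Its XX values were 15.8, 7.02 and 22.0 TPM (E11.5), 9.79, 9.77 and 7.26 (E12.5), 5.10, 6.56 and 8.27 (E13.5) and 6.29, 5.75 and 5.69 (E15.5). In XY it was at 12.1, 15 and 23.8 TPM (E11.5), 7.31, 7.33 and 6.39 (E12.5), 3.26, 3.60 and 2.57 (E13.5) and 1.14, 1.79 and 1.5 (E15.5). Within each sex the order of the E11.5 libraries was again that shared by the interstitial, erythroid and 6-gene germ cell sums, whose part was not tested. The sexes overlapped at E11.5 and E12.5, and at E13.5 and E15.5 XX lay above XY. In XY each step was a called fall (log2 -1.40 ± 0.29, -1.11 ± 0.31 and -1.03 ± 0.34, adjusted p = 0.00044, 0.0161 and 0.032 in turn). The second step lost its call without XY E12.5 replicate 1 (-0.995, adjusted p = 0.0507) or XY E13.5 replicate 3 (-1.05, adjusted p = 0.0692), and the third did so without any 1 of the 6 Nrg1 libraries of those stages (-0.85 to -1.15, adjusted p from 0.0515 to 0.139).

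In XX no single step of Nrg1 was called, and E15.5 was below E11.5 (log2 -1.03 ± 0.30, adjusted p = 0.0055), which was -0.60 and not called without XX E11.5 replicate 3 (adjusted p = 0.0764). XX minus XY for Nrg1 was -0.42 ± 0.29 at E11.5 (adjusted p = 0.255, but -0.85 and 0.0186 without XX E11.5 replicate 3), 0.38 ± 0.29 at E12.5 (adjusted p = 0.274, or 0.0393 with only the libraries compared), 1.04 ± 0.31 at E13.5 (adjusted p = 0.00542) and 2.09 ± 0.33 at E15.5 (adjusted p = 1.12e-05). The change of this difference over the 4 stages was itself called (adjusted p = 0.000329).

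From E11.5 to E12.5 in XY, where Nrg1 fell, the receptor genes Erbb2, Erbb3 and Erbb4 rose (log2 2.48 ± 0.20, 3.62 ± 0.41 and 2.83 ± 0.29). Erbb3 then fell in XY from E13.5 to E15.5 (log2 -1.56 ± 0.38, adjusted p = 0.00528), as Nrg1 did. Erbb3 was at 2.70, 2.77 and 1.98 TPM in XY E11.5, at 26.2, 28.4 and 24.9 in XY E12.5 and at 30.9, 27.0 and 31.9 in XY E13.5, while every XX library from E12.5 on was at or under 0.49. XX minus XY was -6.74 ± 0.52 (E12.5), -7.01 ± 0.55 (E13.5) and -5.01 ± 0.52 (E15.5). Erbb2, the co-receptor without a known ligand of its own, was higher in XX at E11.5 (0.70 ± 0.19) and lower from E12.5 on (-1.58 ± 0.19, -2.73 ± 0.20 and -3.72 ± 0.21). Erbb4 was lower in XX at every stage (-1.35 ± 0.36, -7.47 ± 0.47, -7.32 ± 0.42 and -4.70 ± 0.33), although TPM ranges of the sexes overlapped at E11.5. XX Erbb4 was at most 0.01 TPM at E12.5 and 0.09 at E13.5, so these differences rest on values near 0. In XX E15.5 libraries it was at 1.07, 0.03 and 0.11 TPM. Egfr, the fourth receptor of the family, was lower in XX at E11.5 (-0.83 ± 0.33), with overlapping TPM ranges. It was higher in XX from E12.5 on (3.28 ± 0.38, 6.37 ± 0.47 and 4.94 ± 0.43), with XY E13.5 libraries at 0, 0.15 and 0.18 TPM. Of 7 neuregulin family partners, 5 were tested (Nrg2 and Nrg3 were not), and 4 of the 5 were called at each stage from E12.5 on, 1 higher and 3 lower in XX, beside 62.1%, 66.1% and 69.4% of all genes called in turn.

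Pdgfa, the PDGF ligand whose receptor is PDGFRA, rose strongly in XY. It was at 22.8, 26.6 and 21.7 TPM in XY E11.5, 107, 81.4 and 83.5 (E12.5), 84.7, 92.6 and 84.9 (E13.5) and 132, 140.0 and 149 (E15.5). XX libraries held it at 28.8, 17.6 and 19.7 TPM (E11.5), 17.7, 15.45 and 11.7 (E12.5), 12.6, 14.6 and 14.8 (E13.5) and 19.9, 21.9 and 22.4 (E15.5). The sexes overlapped at E11.5, and from E12.5 on every XY library lay above every XX library. Pdgfa rose in XY by 2.22 ± 0.14 from E11.5 to E12.5 (adjusted p = 6.74e-11, 4.66-fold) and by 0.72 ± 0.14 from E13.5 to E15.5 (adjusted p = 0.000618). In XX it fell in the first of these steps (log2 -0.81 ± 0.15, adjusted p = 3e-04) and rose in the last (log2 0.63 ± 0.15, adjusted p = 0.00339). The XX fall was not called with only the libraries compared (adjusted p = 0.0529). The first steps differed by -3.03 ± 0.20 (adjusted p = 4.98e-10), and the last was not called as different.

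XX minus XY for Pdgfa was 0.16 ± 0.14 at E11.5 (adjusted p = 0.377), -2.87 ± 0.15 at E12.5 (adjusted p = 7.29e-13), -2.60 ± 0.15 at E13.5 (adjusted p = 2.83e-12) and -2.69 ± 0.15 at E15.5 (adjusted p = 1.22e-12). The uncalled E11.5 value of Pdgfa was negative on the TPM scale (-0.13) and without XX E11.5 replicate 1 (-0.05).

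Pdgfb, encoding the ligand that recruits pericytes through PDGFRB, was low. Its XX libraries were at 1.77, 0.84 and 1.11 TPM (E11.5), 0.43, 0.37 and 0.35 (E12.5), 0.90, 0.24 and 0.91 (E13.5) and 0.16, 0.66 and 0.42 (E15.5). In XY it was at 0.42, 0.70 and 0.34 TPM (E11.5), 2.36, 1.33 and 1.41 (E12.5), 1.23, 1.22 and 1.39 (E13.5) and 3.86, 3.70 and 5.04 (E15.5). XX lay above XY at E11.5 and below it at each later stage, in no case with overlap. XX minus XY turned from 1.3 ± 0.36 at E11.5 (adjusted p = 0.00704) to -2.38 ± 0.38 at E12.5 (adjusted p = 1.35e-05), -1.47 ± 0.38 at E13.5 (adjusted p = 0.00183) and -3.52 ± 0.39 at E15.5 (adjusted p = 6.33e-08). The change in this difference from E11.5 to E12.5 was -3.68 ± 0.53 (adjusted p = 1.12e-05). The E11.5 call of Pdgfb was lost when replicate 3 of both sexes was left out (1.02, adjusted p = 0.0724), and the E13.5 call on log2(TPM + 1) over all genes (-0.47, adjusted p = 0.0604). Fits of the E11.5 libraries alone, with or without the replicate block, also lost the E11.5 call (adjusted p at most 0.143).

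In XY, Pdgfb rose 4.29-fold from E11.5 to E12.5 (log2 2.10 ± 0.36, adjusted p = 4.51e-05) and 3.26-fold from E13.5 to E15.5 (log2 1.70 ± 0.34, adjusted p = 0.000857), the steps in which Pdgfa rose. In XX it fell from E11.5 to E12.5 (log2 -1.58 ± 0.39, adjusted p = 0.00375), which was not called with only the libraries compared (adjusted p = 0.0917). Pdgfa stood between 29.5 and 75.9 times above Pdgfb in XY libraries on the TPM scale. Endothelial cells also make Pdgfb, and the endothelial sum was between 6.41 and 10.2 TPM in XY E11.5, 6.69 and 7.75 in XY E12.5, 8.08 and 8.5 in XY E13.5 and 11 and 12.2 in XY E15.5; its part was not tested.

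Of 4 PDGF partners, 1 was higher and 1 lower in XX at E11.5, 4 and 0 (E12.5), 3 and 0 (E13.5), and 2 and 0 (E15.5), beside the shares of all genes given above. Pdgfra was at 76.9, 64.6 and 76.0 TPM in XY E11.5, at 3.07, 3.89 and 4.25 in XY E12.5 at 0.60, 0.63 and 0.94 in XY E13.5 and at 2.06, 2.82 and 1.65 in XY E15.5. It rose 3.04-fold in that last step (adjusted p = 0.00117), in which Pdgfa also rose. The XX values were 36.5, 29.5 and 17.9 TPM (E12.5) and 9.47, 14.7 and 15.2 (E15.5). XX minus XY for Pdgfra was -1.17 ± 0.26 (E11.5), 2.82 ± 0.28 (E12.5), 4.81 ± 0.32 (E13.5) and 2.66 ± 0.29 (E15.5), all called. Pdgfra belongs to the interstitial list, whose 5 other genes summed to between 45.03 and 107 TPM in XX libraries from E12.5 on and to between 3.54 and 31.9 in XY; their part was not tested. Pdgfd, encoding a ligand of PDGFRB, was higher in XX from E12.5 on by 3.14 ± 0.20, 3.09 ± 0.19 and 3.93 ± 0.20, opposite to Pdgfb.

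Vegfa, the main growth factor of blood vessels, was higher in XX at every stage. In XX it was at 6.53, 4.10 and 5 TPM (E11.5), 3.33, 3.91 and 3.76 (E12.5), 2.66, 3.12 and 3.36 (E13.5) and 3.19, 2.5 and 4.09 (E15.5). In XY it was at 1.80, 2.19 and 3.25 TPM (E11.5), 1.79, 1.47 and 2.42 (E12.5), 1.53, 2.08 and 2.11 (E13.5) and 1.02, 1.10 and 1.03 (E15.5). No XY library reached an XX library of its stage. XX minus XY was 1.10 ± 0.21 at E11.5 (adjusted p = 0.00024), 0.90 ± 0.21 at E12.5 (adjusted p = 0.000891), 0.74 ± 0.21 at E13.5 (adjusted p = 0.00483) and 1.70 ± 0.23 at E15.5 (adjusted p = 8.77e-07). Change with stage was not called in XX (adjusted p = 0.174), though it was on the TPM scale (adjusted p from 0.0191 to 0.0377). In XY, Vegfa fell from E13.5 to E15.5 (log2 -0.75 ± 0.23, adjusted p = 0.0199), a call lost without XY E13.5 replicate 2 (-0.69, adjusted p = 0.073), XY E13.5 replicate 3 (-0.70, adjusted p = 0.0694), XY E15.5 replicate 1 (-0.71, adjusted p = 0.0713) or XY E15.5 replicate 3 (-0.77, adjusted p = 0.0512).

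Kdr, encoding the main signalling receptor of VEGFA, was likewise higher in XX from E12.5 on. It was at 10, 9.61 and 5.06 TPM in XX E12.5 and at 0.08, 0.19 and 0.13 in XY E12.5, and at 7.61, 8.65 and 6.83 in XX E15.5 against 1.81, 1.44 and 1.43 in XY. The log2 differences were 5.76 ± 0.45, 3.96 ± 0.38 and 2.34 ± 0.35, and at E11.5 the groups overlapped (-0.35 ± 0.33). Kdr is an endothelial marker, and the 5 other endothelial markers listed summed to between 6.04 and 7.5 TPM in XX E12.5 and between 6.56 and 7.67 in XY E12.5, and to between 4.5 and 5.57 in XX E15.5 and between 9.22 and 10.8 in XY E15.5. At E12.5 the means of Pecam1, Tek and Cldn5 were higher in XX, and those of Cdh5 (1.05 in XX and 2.87 in XY) and Emcn in XY. At E15.5 those of Pecam1 (2.95 and 8.41) and Cdh5 were higher in XY, and those of Tek, Emcn and Cldn5 in XX. The part of these markers in the Kdr difference was not tested. Vegfb, encoding a related ligand, was higher in XX from E12.5 on (1.10 ± 0.20, 1.35 ± 0.20 and 1.32 ± 0.21), as was Pgf (2.91 ± 0.42, 3.18 ± 0.43 and 1.53 ± 0.39). Nrp2 and Flt4, receptor genes linked to lymphatic growth, were lower in XX at these stages (Nrp2 -2.19 ± 0.25, -2.14 ± 0.26 and -1.27 ± 0.27), Flt4 at under 0.50 TPM in every library. Of the 9 VEGF partners, 1 was higher and 1 lower in XX at E11.5, 4 and 2 (E12.5), 5 and 2 (E13.5) and 3 and 2 (E15.5), beside 42.0%, 62.1%, 66.1% and 69.4% of all genes called in turn.

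**Figure D4:**
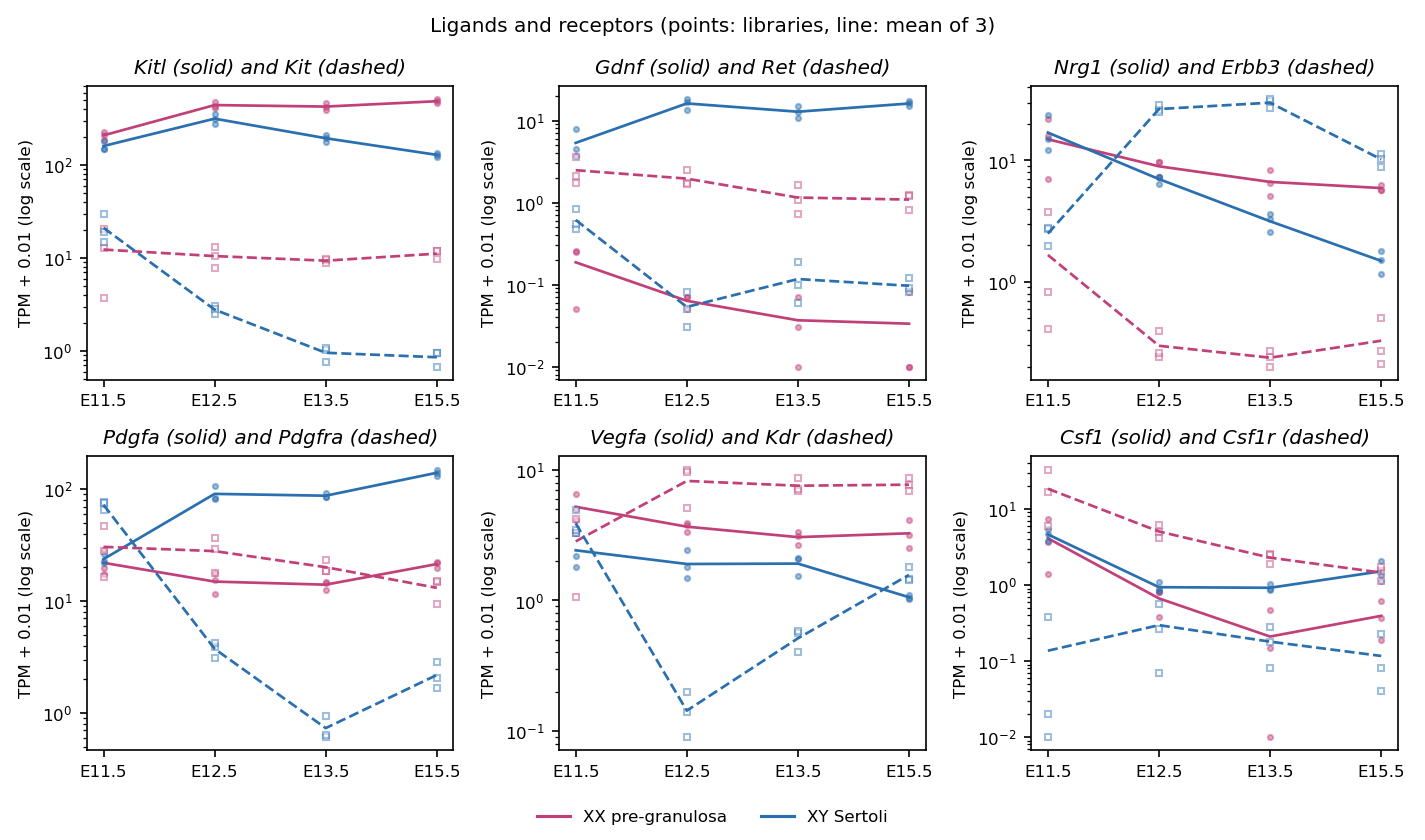
TPM + 0.01 (y axes, log scale) of 6 ligand genes (solid lines, filled circles) and a receptor gene of each (dashed lines, open squares) by stage (x axes), XX in pink and XY in blue, with points for libraries and lines through the mean of 3. Pdgfa rose and Pdgfra fell in XY in the first step, and both rose in XY from E13.5 to E15.5, Erbb3 rose in XY in the first step while Nrg1 fell, both fell in XY from E13.5 to E15.5, and Kdr and Vegfa were both higher in XX from E12.5 on.

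Over all 38 listed receptors and related ligands, 35 were tested. The test called 15 of them at E11.5 (9 higher and 6 lower in XX). It called 26 a day later (20 and 6), 26 at E13.5 (19 and 7) and 22 in E15.5 libraries (15 and 7), beside the shares of all genes given above. Their median log2 difference was 0.13, 1.46, 1.04 and 0.37 at these stages, on the other side of 0 from the median of the 10 genes at each.

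The steps were unevenly spread over stages. From E11.5 to E12.5, 6 of the 10 genes changed in XX (1 up and 5 down, against 34.0% of all genes) and 8 in XY (5 up and 3 down, against 51.9%). From E12.5 to E13.5, 1 fell in XX (Csf1, against 31.7%) and 3 fell in XY (Kitl, Gfra1 and Nrg1, against 16.6%). From E13.5 to E15.5, Pdgfa alone rose in XX (against 25.6%), while 7 changed in XY (3 up and 4 down, against 21.3%). That XY count was 4 without XY E13.5 replicate 2. Between E11.5 and E15.5, 7 genes changed in XX (1 up and 6 down, against 59.4%) and 9 in XY (3 up and 6 down, against 57.7%).

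A change of the XX minus XY difference over the stages was called for 9 of the 10 genes (all but Lif, against 70.1% of all genes). Any change over the 4 stages was called for 8 of the 10 genes in XX (all but Vegfa and Lif, against 74.0% of all genes), of which Gdnf, at 0 to 10 counts per library, lost its call in 16 of 33 alternatives. In XY it was called for 9 (all but Lif, against 70.3%). The step from E11.5 to E12.5 differed between the sexes for 4 genes (Gdnf, Gfra1, Pdgfa and Pdgfb, against 40.1%), the next for Kitl alone (against 25.2%) and the last for 4 (Kitl, Cxcl12, Pdgfb and Vegfa, against 25.8%). The first of these counts was 7 without XX E11.5 replicate 3, and the last was 2 without XY E13.5 replicate 2.

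Each gene was set beside the genes most like it, by Pearson's r of log2(CPM + 1) over the 8 group means (CPM, counts-per-million) among genes reaching 10 CPM. The nearest was Ctr9 for Kitl (r = 0.956), AU015836 for Gdnf (r = 0.998, then P2ry2 and Tesc), Enpp1 for Gfra1 (r = 0.966), Pid1 for Cxcl12 (r = 0.968) and Amot for Nrg1 (r = 0.984). For the others it was Fam222a for Pdgfa (r = 0.99, then Dst and Cxxc5), Pold3 for Pdgfb (r = 0.992), Fmnl2 for Vegfa (r = 0.978), Fzd7 for Csf1 (r = 0.965) and Haus6 for Lif (r = 0.993). These are descriptions over 8 means that share libraries, picked as the highest of many.

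In the GENCODE M21 annotation of GRCm38, the genes lie at chr10:100015630-100100416 (Kitl, plus strand), chr15:7810846-7837575 (Gdnf, plus), chr19:58235604-58455909 (Gfra1, minus), chr6:117168535-117181367 (Cxcl12, plus), chr8:31814551-32884029 (Nrg1, minus), chr5:138976014-138997370 (Pdgfa, minus), chr15:79995874-80014977 (Pdgfb, minus), chr17:46016993-46032369 (Vegfa, minus), chr3:107741048-107760469 (Csf1, minus) and chr11:4257557-4272514 (Lif, plus). Gfra1, Nrg1, Pdgfa and Pdgfb overlap genes on the opposite strand (Gm16277, then Gm26578 and Gm22140, 6330403L08Rik and Gm41361), and Pdgfb also holds Mir7213. Whether counting used strand is not given in the sources used here, so it is not known whether reads from the shared stretches were told apart. These stretches, between whole gene spans, ran from 120 to 7256 bases for the opposite-strand genes (444 in Gfra1). Overlap of exons was not computed.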

How the data were processed

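The deposited estimated counts and TPM values per gene were made by the authors on build mm10, per the submitters' processing notes; the aligner, counter and use of strand are not given in the sources used here. Libraries were made with amplification from low input, with no molecular identifiers described, per the labels' protocols. Estimated counts (17.5% not whole) were rounded and tested with edgeR 4.0.16 in R 4.3.3 (filterByExpr, TMM, robust quasi-likelihood, 1 mean per group, 16 residual degrees of freedom, biological coefficient of variation 17.4%). The alternatives used DESeq2 1.42.0, limma 3.58.1 on log2 TPM, other filters and fits, and each library left out. The genes and lists were chosen with earlier results of these data known; named genes are the 10, their 38 partners, markers and the 3 genes most like each. For XX E13.5 replicate 1, the title gives E13.5 and another field E12.5; it was kept at E13.5. Deviations of same-numbered libraries had r above 0.1 in all 3 pairs only between XX E11.5 and XY E11.5 (0.132 to 0.351, a hint from the data alone). Some other groups had lower r above 0 in all 3 pairs, such as XX E12.5 and XY E12.5 (0.14, 0.032 and 0.099). A count of 3 corresponded to between 0.0774 and 0.26 CPM.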

Additional observations from a re-analysis of the deposited data

Results flagged for a closer look

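The XX minus XY difference changed over the 4 stages, by edgeR's F test of the sex by stage interaction over 24 libraries, for 9 of the 10 genes, all but Lif, beside 70.1% of all genes tested. The adjusted p was 1.77e-10 for Pdgfa, 1.62e-07 for Kitl, 8.99e-07 for Pdgfb, 1.56e-05 for Gfra1, 0.000329 for Nrg1, 0.0011 for Gdnf, 0.0262 for Csf1, 0.032 for Cxcl12 and 0.0412 for Vegfa. The Kitl difference was 0.55 at E11.5, 0.26 at E12.5 and 1.82 at E15.5, Pdgfb changed sign after E11.5, and Nrg1 went from overlapping to higher in XX.

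The last 3 were less secure. Vegfa lost the call in 14 of 32 alternatives (adjusted p from 0.0265 to 0.265), most with 1 library left out, the highest of these without XX E15.5 replicate 3 (adjusted p = 0.192). Cxcl12 lost it in 7, of which 6 left out 1 library: XX E11.5 replicate 1, XX E13.5 replicate 3, XX E15.5 replicate 1 or 3, or XY E13.5 replicate 1 or 2 (adjusted p from 0.0506 to 0.066). Csf1 lost it in 6, among them without XX E11.5 replicate 3 (adjusted p = 0.0718) and without XY E11.5 replicate 1 (adjusted p = 0.0572).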

How the results depend on the processing

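Over the single-gene results and alternatives, 3834 of 4023 values kept direction and call, 167 lost the call, 16 gained it and 6 reversed. The reversed were uncalled E11.5 XX minus XY values: Pdgfa at -0.13, -0.136 and -0.13 on the 3 log2(TPM) scales and -0.051 without XX E11.5 replicate 1 (highest with 1 library left out 0.284), and Csf1 at 0.278 without XX E11.5 replicate 2 and 0.012 without XY E11.5 replicate 3 (lowest -0.845). Counts of the 10 genes called moved as follows. From E12.5 to E13.5 in XX (1 in the main test), 0 were called with DESeq2 size factors, with no filter, with the replicate block and with log2(TPM + 1) filtered or not, 2 with DESeq2, and 0 to 2 with 1 library left out. From E13.5 to E15.5 in XX (1), 2 were called with the replicate block, 0 with an absolute log2 fold of at least 1 and 2 with only the libraries compared. From E13.5 to E15.5 in XY (7), 4 were called with that fold, and 4 to 7 with 1 library left out. The step from E12.5 to E13.5 differed between sexes for 1 gene, for 2 with log2(TPM + 1) filtered or not, 0 with the fold, 3 with only the libraries compared and 1 to 2 with 1 library left out. The step from E13.5 to E15.5 differed for 4 genes, for 2 with the fold and 2 to 6 with 1 library left out, and that from E11.5 to E12.5 for 4, and 4 to 7 with 1 library left out. With only the libraries compared, 2 rather than 5 differed between sexes at E11.5 (2 also with the replicate block, added after seeing the data). In such fits 3 rather than 6 changed between the first stages of XX, where Gfra1, Pdgfa and Pdgfb lost their calls. Between E11.5 and E15.5 of XX, 4 rather than 7 changed. Those fits hold fewer samples; otherwise the cause was not tested. The replicate block over all 24 libraries changed 3 single calls, losing Csf1 from E12.5 to E13.5 in XX (adjusted p = 0.0658) and Gdnf over stages in XX (adjusted p = 0.0526) and gaining Cxcl12 at E13.5 (1.42, adjusted p = 0.0488). On log2(TPM + 1) over filtered genes the median over all genes moved to 0.143 for XX minus XY at E12.5 (5496 genes higher and 3295 lower, against 4939 and 5107 in the main test), -0.168 from E12.5 to E13.5 in XX (993 and 4266, against 2307 and 2822) and -0.126 from E11.5 to E12.5 in XY (2477 and 4538, against 4386 and 4009). Genes of few counts (Lif, Gdnf in XX) are limited by depth.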
